A study of Mus musculus with 8 samples.

Results

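The 9 genes described here encode chemokine receptors that guide helper T cells into tissue: Ccr1, Ccr2, Ccr3, Ccr4, Ccr10, Cxcr3, Cxcr4, Cxcr6 and Cx3cr1. They were taken by gene name from the deposited table, which lists 54532 genes, and all 9 names were found once. The receptors Ccr6, Ccr7, Ccr8 and Cxcr5 were not among them. The series holds bulk mRNA sequencing of splenic CD4+ T cells of WT mice, with 4 libraries after 3 days of dimethyl succinate and 4 libraries after vehicle. The ester crosses membranes and is split inside cells to succinate, a metabolite of the tricarboxylic acid cycle. Strain, age, dose, pooling and whether cells were exposed in culture or in the animal are details the sources used here leave unstated. Nor is it stated that each library had its own mouse or culture, and p-values therefore reflect the spread among these libraries, which may be technical. The series title names T cell infiltration of the obstructed kidney, and the comparison asks whether transcripts of receptors known to serve entry into tissue differed after exposure to the ester.

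Chemokine receptors span the plasma membrane several times and signal mainly through Gi proteins. A ligand held on an endothelial or stromal surface activates the receptor, the G protein beta-gamma subunits start actin polymerisation, and integrins switch to their adhesive state. Receptors then couple to receptor kinases and arrestins, which end the signal and draw the receptor into the cell. CCR4 is known for skin homing and for T helper 2 and regulatory T cells, CXCR3 for T helper 1 cells in inflamed tissue, CXCR6 for cells that persist in tissue, CXCR4 for retention in bone marrow, and CCR1 and CCR2 for monocytes as well as effector T cells.

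The coupling of the receptor to its G protein turns on the Asp-Arg-Tyr motif at the inner end of the third membrane helix. The coding stretch around it is shown, from the longest open reading frame of the GENCODE M21 transcripts (GRCm38), because it lets the family be seen side by side for the 4 receptors with the highest levels and for the 3 closest relatives among the 9. Capitals mark the codons for Asp-Arg-Tyr, or for Asp-Arg-Phe in Cxcr6.
Ccr4: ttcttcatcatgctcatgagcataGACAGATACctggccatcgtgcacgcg
Cxcr6: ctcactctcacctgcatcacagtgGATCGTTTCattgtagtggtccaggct
Cxcr3: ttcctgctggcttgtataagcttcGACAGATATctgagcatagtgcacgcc
Cxcr4: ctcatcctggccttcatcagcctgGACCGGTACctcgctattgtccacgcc
Ccr1: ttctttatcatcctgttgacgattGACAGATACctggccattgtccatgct
Ccr2: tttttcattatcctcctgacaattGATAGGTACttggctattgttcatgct
Ccr3: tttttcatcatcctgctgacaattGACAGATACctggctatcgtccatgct

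Over the whole coding sequence Ccr1 and Ccr3 were the most alike of the 9, with 70.3% of aligned bases identical, followed by Ccr2 and Ccr3 at 65.7% and Ccr1 and Ccr2 at 64.4%. Of the 50-base windows in the transcripts of each receptor, none was found in a transcript of another gene for Ccr1, Ccr3, Ccr10, Cxcr3, Cxcr4 and Cxcr6. The share found elsewhere was 0.465% for Ccr4, 1.06% for Cx3cr1 and 1.91% for Ccr2. Exon bases overlapped another annotated gene only for Cx3cr1, where 78 of 4505 bases lie under the antisense gene Gm33858, and counting by strand was not stated.

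On the mouse build GRCm38, 6 of the 9 genes lie on chromosome 9. Cxcr6 (123806475 to 123811760), Ccr1 (123962124 to 123968692), Ccr3 (124021972 to 124031689) and Ccr2 (124101950 to 124113557) stand within 307083 bases of each other, while Ccr4 (114490316 to 114504916) and Cx3cr1 (119901616 to 120069879) lie apart. The others are Ccr10 on chromosome 11 (101172997 to 101175443), Cxcr3 on chromosome X (101731535 to 101734269) and Cxcr4 on chromosome 1 (128588199 to 128592293). Neighbours in the group around Ccr1 differed widely in level. Cxcr6 averaged 16.7 FPKM in both groups, whereas Ccr1 averaged 0.668 FPKM under dimethyl succinate and 0.549 under vehicle. Ccr1l1, a Ccr1-like gene between Ccr1 and Ccr3, had 1 count in all 8 libraries together, and Xcr1, a receptor of cross-presenting dendritic cells, averaged 0.166 FPKM under dimethyl succinate and 0.239 under vehicle.

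Libraries held between 14663698 and 16688854 counts under dimethyl succinate and between 13407295 and 15738869 under vehicle. The markers match the label of CD4+ T cells. Cd4 averaged 471 ± 15.5 CPM (the usual counts-per-total unit, on TMM-scaled library sizes) under dimethyl succinate and 415 ± 65.5 under vehicle (SD, n = 4 each), Cd3e averaged 185 ± 12.5 CPM under dimethyl succinate and 175 ± 30.1 under vehicle, and Cd8a averaged 1.08 ± 0.214 CPM under dimethyl succinate and 0.868 ± 0.163 under vehicle. Vehicle replicate 4 stood apart, with 0.252% of counts from mitochondrially encoded genes against 1.16% to 1.48% in the other 7 libraries. It was the lowest of the 8 libraries for 4 of the 6 receptors tested. The fold change of each tested receptor is therefore also given without it, as are most gene list counts and some other values.

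The 9 receptors fell into 3 tiers of level. Measured per length, as FPKM deposited by the authors, Ccr4 was highest, followed by Cxcr6, Cxcr3 and Cxcr4, then by Ccr1 and Ccr2 with means of 0.608 and 0.517, and last by Cx3cr1, Ccr3 and Ccr10 with means below 0.1. Ccr4 averaged 44.2 ± 0.949 FPKM under dimethyl succinate and 45.2 ± 4.83 under vehicle, which placed it above 95.8% of the genes with a count. It made up 50.8% of the summed FPKM of the 9 receptors under dimethyl succinate and 52.6% under vehicle. Its mean was 2.67 times that of Cxcr6, and the ranges of the 2 genes did not overlap in either group. Cxcr6 and Cxcr3 were not separable by their spread: Cxcr6 ran from 14.0 to 18.4 FPKM under dimethyl succinate and from 15.5 to 19.2 under vehicle, and Cxcr3 ran from 14.6 to 16.0 FPKM under dimethyl succinate and from 12.1 to 16.2 under vehicle. Cxcr4 lay below Cxcr3 in all 8 libraries, and its mean was 15.3 times that of Ccr1. The order of Ccr1 and Ccr2 differed by group, since Ccr1 was above Ccr2 in every dimethyl succinate library, while their ranges overlapped under vehicle. The order of Cx3cr1, Ccr3 and Ccr10 was not separable in either group.

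**Figure D1:**
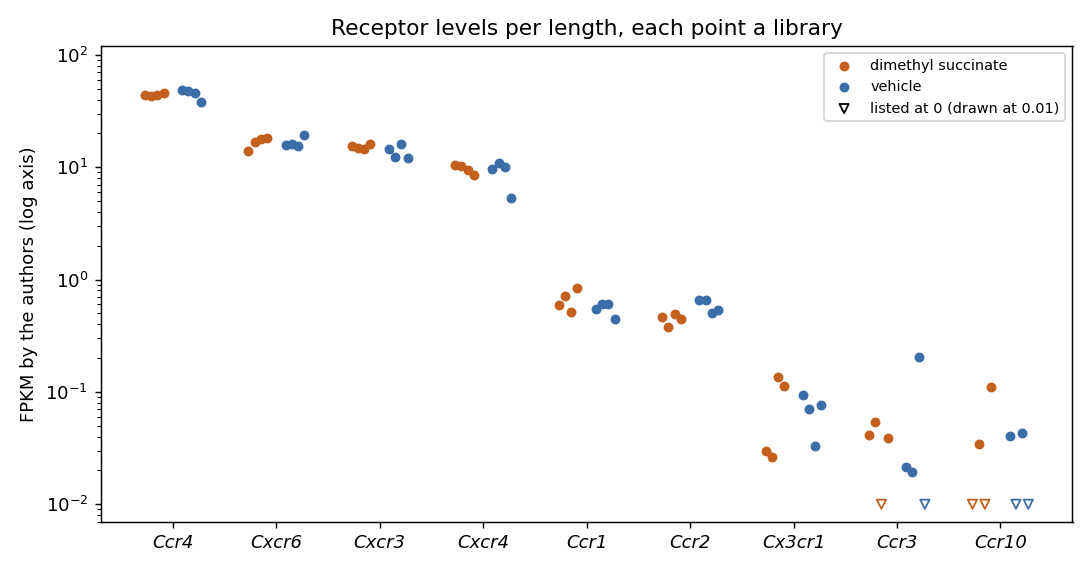
Level per length of the 9 receptors as FPKM by the authors on a log axis, with 4 dimethyl succinate libraries left and 4 vehicle libraries right for each gene, every point being 1 library and open triangles marking values listed at 0. Ccr4 stands above all others, Cxcr6, Cxcr3 and Cxcr4 follow, and Cx3cr1, Ccr3 and Ccr10 scatter near the lowest values.

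No receptor differed between the groups after adjustment. In edgeR's quasi-likelihood test over 13981 genes, 0 of the 6 receptors with enough counts had an adjusted p below 0.05, with adjusted p from 0.802 to 0.99, and 0% of all tested genes were called. With the unadjusted threshold of 0.05, 1 receptor passed, Ccr2, which was lower, beside 5.76% of all tested genes, made up of 2.93% higher and 2.83% lower. Without vehicle replicate 4, Ccr2 was again the 1 receptor that passed, beside 8.54% of all tested genes, 4.43% higher and 4.12% lower. Neither DESeq2 nor limma-voom called a receptor, and the unadjusted threshold was passed by 0 receptors in DESeq2 and by 1 in limma-voom. Of the 6 receptors, 4 had a log2 fold change above 0, against 49.6% of all tested genes, and their median was 0.054, or -0.0031 without vehicle replicate 4. The median over all tested genes was -0.0011. Summed over the 9 genes the level ran from 216 to 228 CPM under dimethyl succinate and from 191 to 233 under vehicle, so the groups overlapped.

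**Figure D2:**
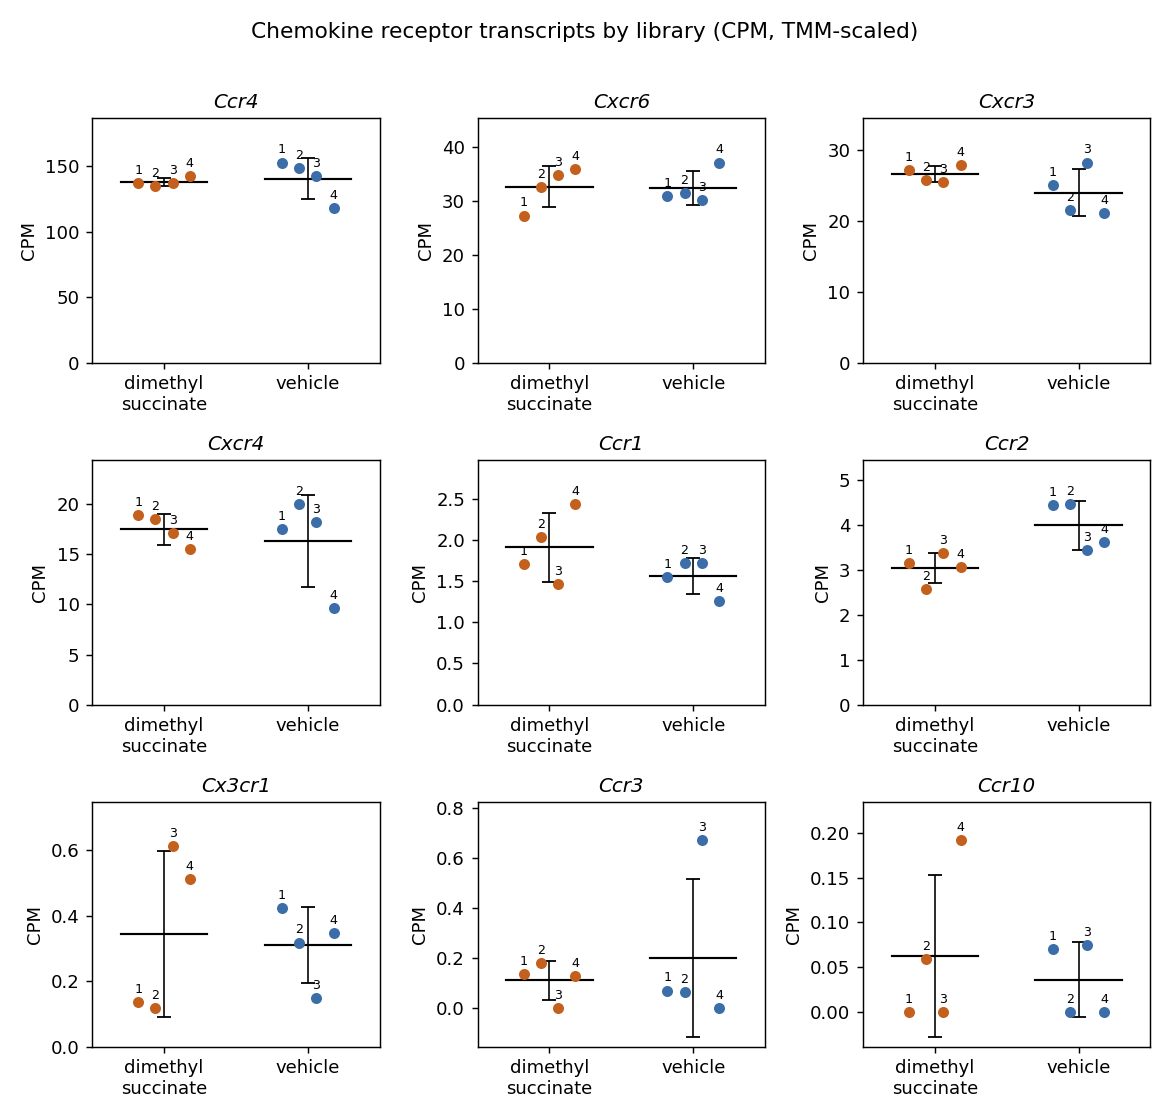
CPM of each receptor by library, with dimethyl succinate left and vehicle right in each panel, numbers naming the replicate, the bar giving the mean and the whiskers the SD of 4 libraries. Each panel has its own scale, and Ccr2 is the gene whose 2 groups do not overlap.

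Ccr2, the receptor for CCL2 and CCL7 that draws monocytes and effector T cells to inflamed tissue, was the receptor with the smallest p. Dimethyl succinate replicates 1 to 4 had 3.14, 2.57, 3.37 and 3.07 CPM, against 4.45, 4.46, 3.44 and 3.62 CPM in vehicle replicates 1 to 4. All 4 dimethyl succinate libraries were lower than every vehicle library, though replicate 3 of each group lay close together. These values rest on 43 to 55 counts per dimethyl succinate library and 46 to 70 per vehicle library, which overlap before scaling. The means were 3.04 ± 0.337 CPM under dimethyl succinate and 3.99 ± 0.538 under vehicle (SD, n = 4 each). Its log2 fold change of -0.40 ± 0.173 (SE) had 95% bounds of -0.77 and -0.024, or 0.586 and 0.984 as a fold. By edgeR's quasi-likelihood test Ccr2 reached p = 0.0389, or 0.802 once adjusted by Benjamini-Hochberg, and an exact permutation test on both sides gave 0.0286, below which 4 libraries a group cannot go. Groups that do not overlap were found for 4.82% of all tested genes, and for 9.61% without vehicle replicate 4.

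Without vehicle replicate 4 the log2 fold change of Ccr2 was -0.44 ± 0.197 (SE), with an adjusted p of 0.531 in edgeR. The unadjusted p of Ccr2 in edgeR lay between 0.0516 and 0.108 when dimethyl succinate replicate 1, 2 or 4 or vehicle replicate 1 or 2 was left out, with log2 fold changes from -0.41 to -0.32. Within groups the CPM of Ccr2 varied by 12.8% (CV), against 13.8% from counting alone. With 4 libraries a group, that estimate cannot show whether spread beyond counting error was absent. In the authors' deposited table its log2 fold change was -0.40, with a p-value of 0.0672 and an adjusted p-value of 1. In bulk RNA, fewer cells that carry a transcript and less transcript per cell cannot be told apart. Monocytes carry Ccr2 too, and the 12 monocyte and macrophage markers summed to 19.8 to 26.8 CPM under dimethyl succinate and 14.3 to 21.2 under vehicle. The lowest of these sums, 14.3 CPM, was that of vehicle replicate 4. None of the 12 was at 0 in all libraries, and 5 of the 6 tested had a log2 fold change above 0, with a median of 0.23, or 5 of 7 and a median of 0.049 without vehicle replicate 4. Lyz2, the myeloid lysozyme, was at 0.75 ± 0.381 (SE), and the integrin gene Itgam, untested, averaged 0.349 CPM under dimethyl succinate and 0.0682 under vehicle, with groups that do not overlap. Fcer1g, the highest of them by FPKM, averaged 3.97 ± 1.002 CPM under dimethyl succinate and 3.80 ± 0.501 under vehicle. The defining markers Csf1r, Adgre1 and Fcgr1 averaged 0.217, 0.190 and 0.0153 CPM under dimethyl succinate, against 0.323, 0.0523 and 0.0159 under vehicle. They had 33, 15 and 2 counts in all libraries together. Csf1r was at 0.765 CPM in vehicle replicate 4, against 0.0706, 0.382 and 0.0748 in vehicle replicates 1 to 3. The part of such cells in the Ccr2 result was not tested.

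Ccr1, which binds CCL3 and CCL5, was near Ccr2 in FPKM, and had 211 counts in all against 423 for the longer Ccr2 transcript. Dimethyl succinate replicates 1 to 4 had 1.71, 2.03, 1.47 and 2.43 CPM, against 1.55, 1.72, 1.72 and 1.25 CPM in the vehicle replicates. The highest library, dimethyl succinate replicate 4, and the lowest, vehicle replicate 4, stood at the ends of ranges that overlapped. Its log2 fold change of 0.29 ± 0.242 (SE) had 95% bounds of -0.23 and 0.81, at an adjusted p of 0.813 in edgeR, and it was 0.20 ± 0.276 without vehicle replicate 4. With 18 to 38 counts per library, a rise of up to 1.75-fold or a fall to 0.85 of the vehicle level lies inside the interval. Ccr1 and Ccr2, which share ligands in part and a place on chromosome 9, had fold changes of opposite sign. The difference between them was not tested.

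Ccr4, the receptor for CCL17 and CCL22, was the best measured of the 9, with 1701 to 2335 counts per library. Dimethyl succinate replicates 1 to 4 had 137, 135, 137 and 142 CPM, against 153, 149, 142 and 118 CPM in the vehicle replicates. The dimethyl succinate libraries lay close together, and vehicle replicate 4 was lower than all 7 others. The means were 138 ± 3.14 CPM under dimethyl succinate and 140.5 ± 15.4 under vehicle (SD, n = 4 each), and the log2 fold change was -0.027 ± 0.076 (SE). The 95% interval of the fold was 0.875 to 1.10. Without vehicle replicate 4 the fold change of Ccr4 was -0.10 ± 0.049 on the log2 scale, with an unadjusted p of 0.0501 and an adjusted p of 0.585 in edgeR. The 3 vehicle libraries then ran from 142 to 153 CPM, against 135 to 142 under dimethyl succinate, and dimethyl succinate replicate 4 lay just above vehicle replicate 3. Without vehicle replicate 1 or 2 the log2 fold change was 0.017 or 0.0012.

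**Figure D3:**
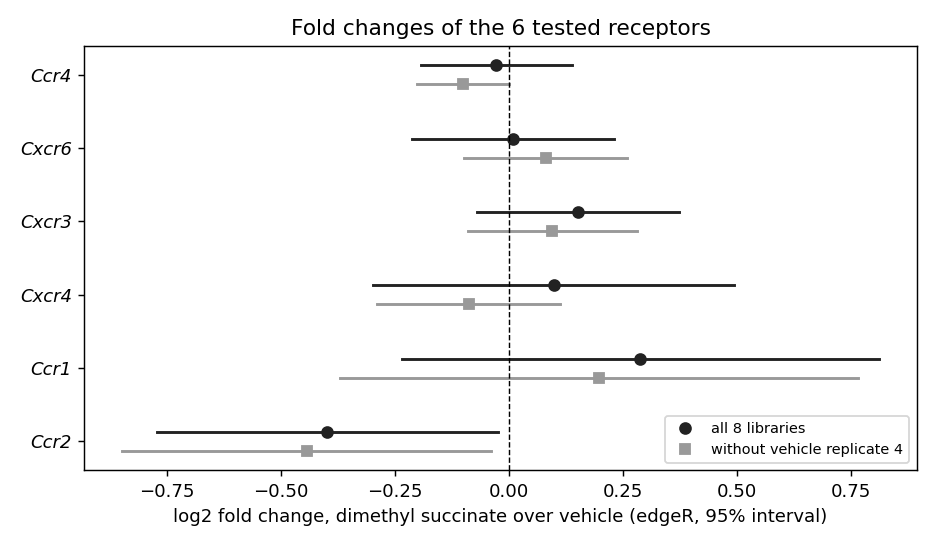
Log2 fold change of dimethyl succinate over vehicle with its 95% interval for the 6 tested receptors, in black circles for all 8 libraries and grey squares without vehicle replicate 4. The interval of Ccr2 lies below 0 in both, that of Cxcr4 narrows and moves below 0 at its centre without that library, and 5 intervals cover 0 with all libraries.

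Cxcr3, the receptor for CXCL9 and CXCL10 and a target of the T helper 1 factor T-bet, overlapped between the groups. Dimethyl succinate replicates 1 to 4 had 27.2, 25.8, 25.5 and 27.9 CPM, against 25.1, 21.5, 28.2 and 21.0 CPM in the vehicle replicates. Vehicle replicate 3 exceeded every dimethyl succinate library, and the other 3 vehicle libraries lay below all of them. Its log2 fold change of 0.15 ± 0.102 (SE) had fold bounds of 0.953 and 1.29 and an adjusted p of 0.804 in edgeR. It was 0.24 without vehicle replicate 3, with an unadjusted p of 0.0329 and an adjusted p of 0.706 in edgeR, and 0.096 without vehicle replicate 4. Tbx21, which encodes T-bet, averaged 112 ± 7.02 CPM under dimethyl succinate and 108 ± 3.63 under vehicle, a log2 fold change of 0.052 ± 0.063 (SE).

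Cxcr6, the receptor for the membrane-bound ligand CXCL16, showed no shift of its mean. Dimethyl succinate replicates 1 to 4 had 27.3, 32.5, 34.8 and 35.8 CPM, against 30.8, 31.5, 30.1 and 37.1 CPM in the vehicle replicates. Dimethyl succinate replicate 1 was lowest and vehicle replicate 4 highest, and the ranges overlapped. The means were 32.6 ± 3.81 CPM under dimethyl succinate and 32.4 ± 3.18 under vehicle (SD, n = 4 each). The log2 fold change was 0.0095 ± 0.102 (SE), or 0.082 without vehicle replicate 4, and the fold interval with all libraries was 0.863 to 1.17.

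Cxcr4, the receptor for CXCL12, depended most on 1 library. Dimethyl succinate replicates 1 to 4 had 18.9, 18.5, 17.1 and 15.5 CPM, against 17.6, 19.99, 18.2 and 9.60 CPM in the vehicle replicates. Vehicle replicate 4, with 138 counts of Cxcr4, lay well below the other 7 libraries, and the rest overlapped. With all libraries the log2 fold change was 0.098 ± 0.182 (SE), and without vehicle replicate 4 it was -0.088 ± 0.098, so its sign turned. Its adjusted p in edgeR was 0.91 and 0.839. The within-group CV of Cxcr4 was 20.3%, against 6.24% from counting, whereas that of Ccr1 was 19.2% against 19.5%. The same library had the low mitochondrial share given above, and the part of that in its Cxcr4 level was not tested.

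**Figure D4:**
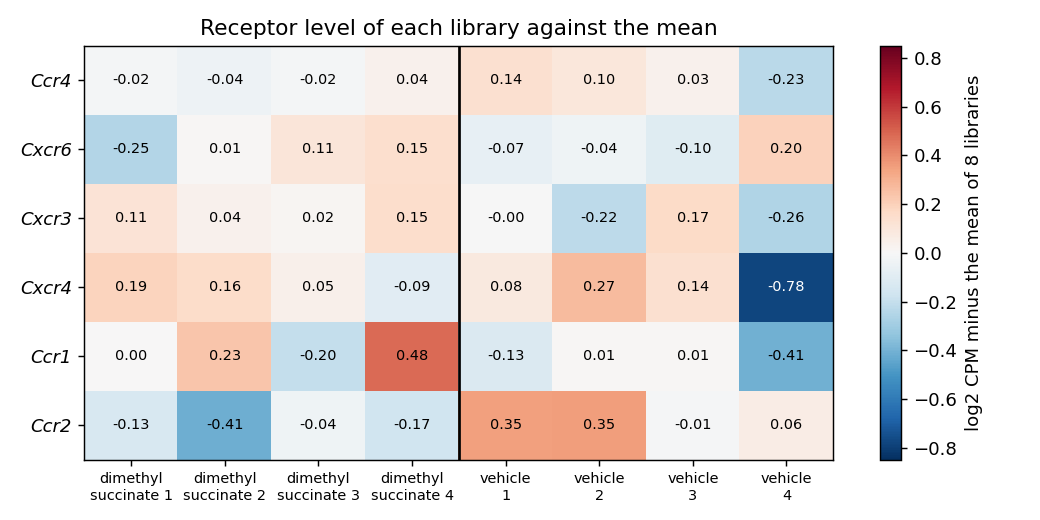
Log2 CPM of each tested receptor minus its mean over 8 libraries, with genes in rows, the 4 dimethyl succinate libraries left of the line and the 4 vehicle libraries right of it. Vehicle replicate 4 is lowest for Ccr4, Cxcr3, Cxcr4 and Ccr1 and highest for Cxcr6, and the deviation of Cxcr4 there is -0.78.

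The remaining 3 receptors had too few counts to be kept by the filter of the main test. Without a low-count filter, edgeR gave unadjusted p of 0.426 for Ccr3, 0.601 for Ccr10 and 0.813 for Cx3cr1. Cx3cr1, the fractalkine receptor of cytotoxic effector cells and monocytes, had 2, 2, 10 and 8 counts in dimethyl succinate replicates 1 to 4, against 6, 5, 2 and 5 in the vehicle replicates. The counts spread more widely under dimethyl succinate, and the groups overlapped. Ccr3, the eotaxin receptor of eosinophils and some T helper 2 cells, had 2, 3, 0 and 2 counts in dimethyl succinate replicates 1 to 4, against 1, 1, 9 and 0 in the vehicle replicates, so 9 of 18 counts came from vehicle replicate 3. Ccr10, a skin and mucosal homing receptor for CCL27 and CCL28, had 6 counts in all and none in 4 libraries. A count of 0 allows a level of up to 3 counts, which is 0.179 to 0.224 CPM in these libraries by counting error alone, so no fold is given for Ccr3 or Ccr10. Epx, the eosinophil peroxidase, averaged 0.0768 CPM under dimethyl succinate and 0.176 under vehicle. The means of other untested genes of the granulocyte list went both ways. Prg2 averaged 0.111 CPM under dimethyl succinate and 0.159 under vehicle, from 16 counts. Vehicle replicate 4 was the highest vehicle library for both Epx and Prg2, at 0.417 and 0.487 CPM. Vehicle replicates 1 to 3 had 0.212, 0 and 0.0748 CPM of Epx, and 0, 0 and 0.150 CPM of Prg2. Siglecf and Il5ra averaged 0.367 and 0.0480 CPM under dimethyl succinate, against 0.242 and 0.0187 under vehicle, from 37 and 4 counts. Csf3r and Ly6g averaged 0.126 and 0.0459 CPM under dimethyl succinate, from 8 and 3 counts, and were at 0 under vehicle. The groups of Csf3r did not overlap. S100a8 had 1 count in all, under vehicle. Apart from those of Siglecf, these means lay below 0.179 CPM, so no direction is read from them. Genes of basophils and mast cells were higher in level than Epx. Mcpt8, a basophil protease, averaged 4.62 ± 1.19 CPM under dimethyl succinate and 3.37 ± 0.457 under vehicle. Its unadjusted p was 0.0425 and its adjusted p 0.802 in edgeR. Without vehicle replicate 4 its unadjusted p was 0.0732 in edgeR. Cpa3, a mast cell and basophil protease, averaged 6.04 CPM under dimethyl succinate and 5.05 under vehicle. Fcer1a and Kit went the other way, at log2 fold changes of -0.44 and -0.060, or -0.48 and -0.11 without vehicle replicate 4. Of the 13 granulocyte and mast cell genes listed, 4 were tested and 2 of these lay above 0. The unadjusted threshold was passed by 1 higher and 0 lower, beside 2.93% and 2.83% of all tested genes. Without vehicle replicate 4, again 2 of 4 lay above 0. Then 0 higher and 0 lower passed, beside 4.43% and 4.12% of all tested genes. The part of such cells in the Ccr3 counts was not tested.

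The ligands of these receptors were also read out, since T cells make several of them, from a list chosen with earlier results of these data known. Of 13 ligand genes tested, 10 had a positive log2 fold change around a median of 0.19, and the unadjusted threshold of 0.05 was passed by 3 that were higher and 0 that were lower. Over all tested genes 49.6% lay above 0, 2.93% were higher and 2.83% lower by that threshold. Without vehicle replicate 4 the ligands numbered 10 above 0, 4 higher and 0 lower, with a median of 0.17, beside 4.43% higher and 4.12% lower over all tested genes. With all 8 libraries 0 of all tested genes passed the adjusted threshold in edgeR, against 28 without vehicle replicate 4. Ccl22, a ligand of CCR4, averaged 46.8 ± 5.02 CPM under dimethyl succinate and 36.6 ± 3.37 under vehicle, a log2 fold change of 0.35 ± 0.095 (SE), and Ccr4 itself was at -0.027. Its other ligand gene, Ccl17, stood at 0.853 ± 0.281 CPM under dimethyl succinate and under vehicle at 1.16 ± 0.619 CPM, a log2 fold change of -0.44, or -0.0046 without vehicle replicate 4. Ccl5 and Ccl3, ligands of CCR1, had log2 fold changes of 0.56 ± 0.170 and 0.65 ± 0.223 (SE), or 0.38 and 0.44 without vehicle replicate 4, where Ccl3 was the 1 ligand called, with an adjusted p of 0.00198 in edgeR against 0.197% of genes called. Ccl4, among the 3 most abundant ligands, averaged 78.6 ± 15.2 CPM under dimethyl succinate and 64.0 ± 10.9 under vehicle. The ligands of CXCR3 had log2 fold changes of -0.013 for Cxcl10 and 0.27 ± 0.273 (SE) for Cxcl9, or 0.018 and 0.052 without vehicle replicate 4, and Cxcl16, the ligand of CXCR6, was at 0.19 ± 0.177. Ccl2 had 2 counts and Ccl7 had 1 in all libraries, and Cxcl12, Ccl8, Ccl11 and Ccl12 were at 0 in all 8, so transcripts for the main ligands of CCR2 and CXCR4 were at or near 0 in these libraries.

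**Figure D5:**
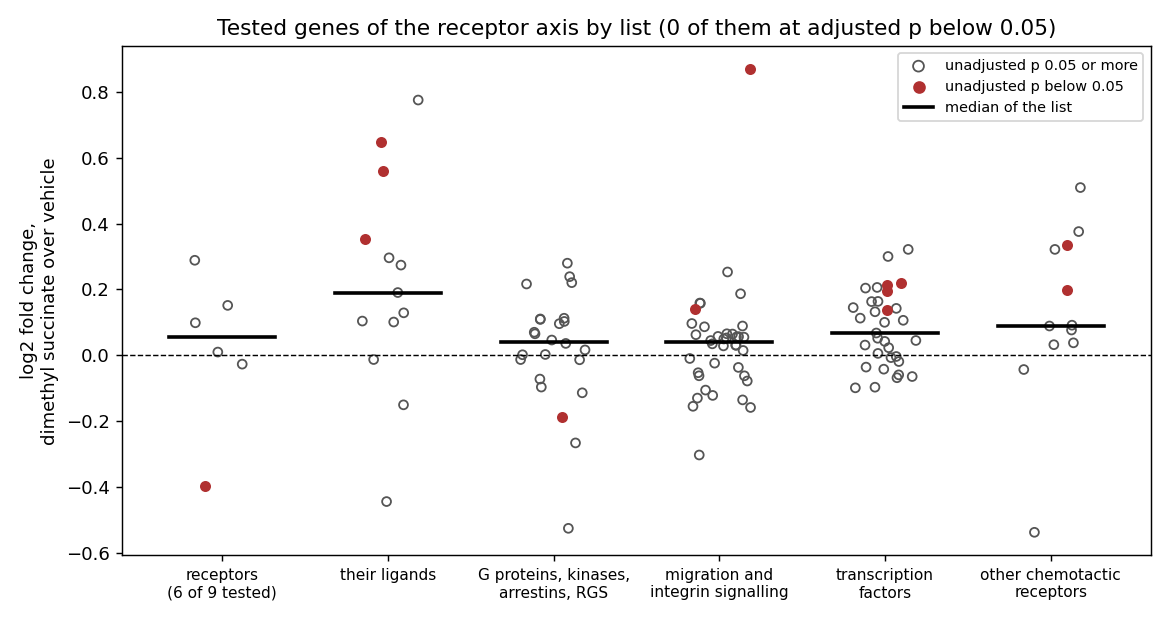
Log2 fold change of dimethyl succinate over vehicle for every tested gene of 6 lists, with filled points at an unadjusted p below 0.05 and black bars at the median of each list. The ligand genes have the highest median, 0.19, the receptors lie between -0.40 and 0.29, and 0 genes pass the adjusted threshold.

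Downstream of the receptors act Gi proteins, receptor kinases, arrestins and RGS proteins. Of 24 tested, 16 lay above 0 around a median log2 fold change of 0.041, and 0 higher and 1 lower gene passed the unadjusted threshold, beside 2.93% and 2.83% of all tested genes. Without vehicle replicate 4, 17 of 25 lay above 0 around a median of 0.025, and 3 higher and 1 lower gene passed, beside 4.43% and 4.12% of all tested genes. Rgs10, a brake on Gi signalling, was the lower one, at 32.8 ± 1.44 CPM under dimethyl succinate and 37.3 ± 1.41 under vehicle, a log2 fold change of -0.19 ± 0.073 (SE). Rgs16, another such brake that is induced in activated T cells, averaged 108 ± 7.40 CPM under dimethyl succinate and 91.9 ± 19.5 under vehicle. Its log2 fold change was 0.24 ± 0.120 (SE), or 0.40 without vehicle replicate 4, where its adjusted p was 0.00198 in edgeR and it was the 1 gene of the list called. Rgs2 was at -0.27 ± 0.147, or -0.12 without that library. The most abundant members, Gnai2 and Gnai3, which encode the Gi alpha subunits of T cells, and Grk2, the kinase that phosphorylates active receptors, had log2 fold changes of 0.11, -0.097 and 0.0022, or 0.066, -0.062 and 0.019 without it.

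Of 38 genes that carry the signal to the actin skeleton and to integrins, 24 lay above 0 around a median of 0.039, and 2 higher and 0 lower genes passed the unadjusted threshold, against the same 2.93% and 2.83%. If vehicle replicate 4 was left out, 24 lay above 0 around a median of 0.022. Then 2 higher and 1 lower passed, beside 4.43% and 4.12% of all tested genes. Wipf1, which stabilises the actin nucleation factor WASP, averaged 316 ± 11.04 CPM under dimethyl succinate and 287 ± 13.9 under vehicle, a log2 fold change of 0.14 ± 0.060 (SE). Rap1gap2, which turns off the integrin switch Rap1, averaged 2.13 ± 0.370 CPM under dimethyl succinate and 1.15 ± 0.396 under vehicle, a log2 fold change of 0.87 ± 0.276, and Rap1b itself had -0.13 ± 0.068, or -0.080 without that library. Both Coro1a, an actin regulator needed for T cell traffic, and Rac2, a GTPase of leukocyte movement, had changes that shrank to near 0 without vehicle replicate 4. Coro1a was at -0.16, or 0.011 without it, and Rac2 at 0.16, or 0.026 without it.

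Among 33 transcription factors of effector homing, 23 lay above 0 around a median of 0.067, and 4 higher and 0 lower genes passed the unadjusted threshold, set against 2.93% and 2.83% of all tested genes. With vehicle replicate 4 left out, 22 lay above 0 around a median of 0.045. By the unadjusted threshold 6 higher and 3 lower then passed, beside 4.43% and 4.12% of all tested genes. Runx3, which favours T helper 1 and cytotoxic programmes, averaged 132 ± 6.05 CPM under dimethyl succinate and 114 ± 10.02 under vehicle, a log2 fold change of 0.21 ± 0.072 (SE). Stat6, the factor of interleukin-4 signalling, was at 0.22 ± 0.087, or 0.13 without that library, and Rel, an NF-kB subunit, at 0.14 ± 0.057. The most abundant, Irf4, Tcf7 and Hif1a, were at -0.0074, 0.21 and -0.099, or -0.031, 0.015 and -0.15 without vehicle replicate 4. No gene of these 3 lists passed the adjusted threshold in edgeR with all libraries.

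Ccr7 and Ccr8 were above all 9 receptors in level. Ccr7, the receptor for entry into lymph nodes, averaged 731 FPKM over the 8 libraries, Ccr8 averaged 114 FPKM and Gpr18 averaged 39.6 FPKM, against 44.7 FPKM for Ccr4. Of 12 such receptors tested, 10 lay above 0 around a median of 0.090, and 2 higher and 0 lower genes passed the unadjusted threshold, where 49.6% of all tested genes lay above 0 and 2.93% and 2.83% passed. When vehicle replicate 4 was left out, 7 lay above 0 around a median of 0.075. Again 2 higher and 0 lower passed, beside 4.43% and 4.12% of all tested genes. With all libraries the 2 were Cxcr5, the follicular homing receptor, at 0.33 ± 0.128 (SE), and Gpr183, which senses oxysterols. Gpr183 averaged 82.9 ± 3.70 CPM under dimethyl succinate and 72.2 ± 8.08 under vehicle, and its log2 fold change, 0.20 ± 0.082 (SE), became 0.13 once that library was left out. Gpr15, a gut homing receptor, had 2.33 ± 0.723 CPM under dimethyl succinate and 1.62 ± 0.191 under vehicle.

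The genes whose level followed a receptor most closely over the 8 libraries were sought among 8914 genes of at least 10 CPM, by Pearson's r of log2 CPM, as a description only. For Ccr4 these were Nrm and Rae1, at 0.961 and 0.96, or 0.864 and 0.956 without vehicle replicate 4. For Cxcr3 they were Itpr3 and Abhd6, at 0.957 and 0.943, or 0.929 and 0.945 without that library. For Cxcr4 they were Mapk3 and Mrps18b, at 0.988 and 0.987, or 0.913 and 0.941 without vehicle replicate 4. For Cxcr6 they were Cstf3 and Cflar, at 0.995 and 0.96, or 0.992 and 0.943 without that library. These are the highest of 8914 values each, and the points share library depth and quality.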

How the data were processed

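Reads of the 8 libraries were aligned with HISAT2 2.0.5, per the submitters' processing notes. As to the counting tool, annotation, build and strand setting: not given in the sources used here. In their table the authors deposited raw counts per gene, FPKM values per library, group means of normalised signal, log2 fold changes, p-values and adjusted p-values, per the file headers, which call the vehicle DMSO. Gene start and end equalled those in GENCODE M21 (GRCm38) for 98.33% of 54409 matched genes, so coordinates are read as GRCm38.

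From the counts, edgeR 4.0.16 in R 4.3.3 kept genes by filterByExpr (13981 genes), scaled by TMM and compared the groups, 4 against 4, with the quasi-likelihood F test, two-sided, with robust dispersions. Benjamini-Hochberg adjustment ran over all tested genes, at 0.05. CPM used TMM-scaled library sizes, log2 CPM a prior count of 2. Single values were compared by exact permutation of mean log2 CPM over 70 splits. The fit was tested on simulated data. The lowest chi-square per gene between replicates was 2.11, where counting alone gives 1, so no library was a copy of another. Coding sequences were aligned with Biopython 1.88.

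Members and gene lists were chosen with earlier results of these data known. Named genes are the 9 receptors and, of each list, the 3 tested genes with the smallest p and the 3 with the highest FPKM. Some are named beyond that rule, after their values were seen. These are Tbx21, Cxcl9, Cxcl10, Cxcl16, Ccl17, Ccl2, Ccl7, Epx, Cpa3, Lyz2, Itgam, Csf1r, Adgre1, Fcgr1 and the genes at 0. Prg2, Siglecf, Il5ra, Csf3r, Ly6g, S100a8, Fcer1a and Kit are named so too. Alternatives were DESeq2 1.42.0, limma-voom (limma 3.58.1), limma-trend on log2(FPKM + 1) and log2(FPKM + 0.1), other scaling, other filters, a replicate block, each library left out and, added later, library quality weights. Markers of other cells were summed in CPM, given here under dimethyl succinate and then under vehicle. The 2 cytotoxic T cell genes, mostly Cd8b1, summed to 5.85 to 7.54 and 5.50 to 5.98. The 13 granulocyte and mast cell genes summed to 16.1 to 20.7 and 13.2 to 19.2. Mcpt8 was the highest of them by FPKM, and S100a9 and Ear2 were at 0. The 8 natural killer cell genes, Gzma highest by FPKM, summed to 18.1 to 24.7 and 21.1 to 26.1. The 8 B cell genes, Cd79b highest by FPKM, summed to 5.75 to 7.16 and 5.91 to 7.00. The 8 dendritic cell genes summed to 93.2 to 107 and 97.5 to 118. These were mostly Bst2, which T cells express, with Siglech and Cd209a at 0.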

Additional observations from a re-analysis of the deposited data

Results flagged for a closer look

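Ccr3 in vehicle replicate 3 stood at 0.673 CPM, from 9 counts, against 0.0706 CPM or less in the other 3 vehicle libraries. The gap to the nearest library was 0.895 of the whole range of the group, above the 95% critical value of 0.829 for 4 samples. Of 18 groups of 4 libraries checked, 1 stood out in this way, and chance gives about 1 in 20.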

How the results depend on the processing

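No receptor passed the adjusted threshold under any of the 18 alternatives. The count over all genes was 0 but became 6 with no low-count filter, 1 with the replicate block, 40 with library quality weights in limma-voom (added after the data were seen) and 0 to 28 with each library left out in turn, the 28 without vehicle replicate 4; the cause was not tested. Receptors under the unadjusted threshold of 0.05 numbered 0 with DESeq2, 0 without the low-count filter, 0 under the replicate block and 0 to 2 with each library left out, in each case through Ccr2 crossing 0.05 or, without vehicle replicate 3, Cxcr3 joining it. Ccr2 stayed negative and Ccr1 and Cxcr3 positive under all 18, with Ccr2 from -0.46 to -0.13, the smallest on log2(FPKM + 1), a pseudocount above the level of the gene. Leaving out single libraries moved the log2 fold change of Ccr4 between -0.10 and 0.017, of Cxcr4 between -0.088 and 0.21 and of Cxcr6 between -0.036 and 0.088, each with changes of sign, and quality weights gave Cxcr4 -0.070. The labels do not state whether the numbers in the titles pair libraries. Deviations of same-numbered libraries correlated at -0.014, 0.011, 0.056 and 0.13, and 1 of 4 correlated best with its own number. The replicate block put 987 genes under the unadjusted threshold of 0.05, against 805 in the main fit. With 4 libraries a group, these values cannot settle whether libraries were paired. With Ccr1 at 18 to 38 counts per library and Ccr3 and Ccr10 at 0 to 9, depth limits what can be said of them.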
